A study of Mus musculus with 6 samples.

Results

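The genes described here encode 45 enzymes that write or erase methyl and acetyl groups on histone lysines, out of 24594 entries in a table of nuclear RNA-seq counts. They were listed by name, with earlier results of these data known, and all 45 matched an entry. By target they comprise 18 demethylases and 27 writers, of which 21 are methyltransferases and 6 are acetyltransferases. The libraries came from NeuN-positive nuclei sorted from the cerebellum of mice aged 7 months. In the cKO mice both Ezh1 alleles were conditional knockout alleles and Neurod1-Cre was present (3 libraries). The WT mice had wild-type Ezh1 alleles and carried Neurod1-Cre too (3 libraries). Neurod1 encodes a transcription factor of granule neurons, and nuclei of cells in which this Cre was never active keep intact Ezh1 alleles. Whether each library is a different animal is not stated in the labels, and the p-values therefore measure spread between libraries that may be technical in part.

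Ezh1 encodes a catalytic subunit of Polycomb repressive complex 2, which methylates lysine 27 of histone H3 (H3K27). Histone lysine methylation is set by methyltransferases and removed by demethylases, and each enzyme prefers certain residues. Methylation of H3K4, H3K36 and H3K79 accompanies active genes, whereas trimethylation of H3K9, H3K27 and H4K20 accompanies repressed chromatin. Acetylation of H3K27 marks active enhancers and promoters. Many of these enzymes are mutated in human neurodevelopmental disorders, and neurons go on expressing them after their last division. The comparison asks which of them differ in RNA level where Ezh1 has been deleted.

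Libraries held 6340236 to 6827022 counts in cKO and 6682805 to 8284768 counts in WT. Levels are given in CPM, counts per 1e+06 counts of a library after TMM scaling, and log2 fold changes are cKO over WT. Each gene was tested with edgeR's quasi-likelihood test over 13115 genes, with a call, in either direction, at a Benjamini-Hochberg adjusted p below 0.05. Ezh1 itself stood at 52.5, 50.9 and 55.6 CPM in the cKO libraries, against 71.0, 75.6 and 83.3 CPM in the WT libraries. Which exons the allele deletes is not given in the sources used here, and the counts are per gene, not per exon. Ezh1 was 30.9% lower (log2 fold change -0.53, SE 0.10, adjusted p = 0.00672). It was not called without cKO replicate 1 (adjusted p = 0.0833) or WT replicate 3 (adjusted p = 0.115).

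The 12 granule cell markers summed to 3962 to 4703 CPM in cKO and 4054 to 4169 CPM in WT, and Fat2 and Rbfox3 made up most of the sum. Neurod1, the gene that names the Cre present in both genotypes, was called higher in cKO (307 ± 17.7 CPM in cKO and 142 ± 10.4 CPM in WT, 2.16-fold, adjusted p = 8.04e-10 by edgeR). Neurod2 was called lower (63.8 ± 3.97 CPM in cKO and 86.3 ± 7.93 CPM in WT, -0.44 on the log2 scale, adjusted p = 0.0269), but not without cKO replicate 1 (0.129), cKO replicate 3 (0.125), WT replicate 2 (0.211) or WT replicate 3 (0.114), nor with replicates 2 and 3 alone (0.0708). Markers of other cell types were detected too. The 10 oligodendrocyte markers summed to 409.9, 319 and 702 CPM in cKO replicates 1, 2 and 3. In WT replicates 1, 2 and 3 they summed to 452, 388 and 260.1 CPM. For all 10 the highest library was cKO replicate 3. All 10 log2 fold changes were positive, and none was called by edgeR, DESeq2 (which gave no adjusted p to 6) or limma-voom. The 8 astrocyte and Bergmann glia markers summed to 467 to 580.0 CPM in cKO and 541 to 584 CPM in WT, most of it Slc4a4. Of these 8, 7 had a negative log2 fold change (median -0.40), and none was called by edgeR, DESeq2 (which gave no adjusted p to 7) or limma-voom. Purkinje cell markers summed to 390.1 to 568 CPM in cKO and 451 to 639 CPM in WT. Interneuron markers summed to 235 to 251 CPM in cKO and 236 to 282 CPM in WT, and unipolar brush cell markers to 289 to 307 CPM in cKO and 291 to 316 CPM in WT. Microglial markers (17.6 to 23.7 CPM in cKO and 15.3 to 29.0 CPM in WT) and markers of vessels, meninges and choroid plexus (10.3 to 19.9 CPM in cKO and 16.02 to 18.4 CPM in WT) were low. The summed levels of the genotypes overlapped for all 8 marker lists, and 0 markers were at 0 in every library. Single markers did separate the genotypes, with Zic2, Neurod1, Gad2, Eomes, Slc1a3 and Flt1 higher and Neurod2 lower in every cKO library. Of all tested genes 16.3% separated the genotypes in this way (7.91% higher and 8.4% lower). Flt1, at 3 to 12 counts a library, was too low to be tested. Eomes, a marker of unipolar brush cells, averaged 20.5 ± 1.56 CPM in cKO libraries and 10.3 ± 4.93 CPM in WT libraries (adjusted p = 0.0868 by edgeR and 0.0240 by limma-voom). The part of these markers in the results was not tested. In bulk libraries fewer cells of a type and less RNA per cell cannot be told apart.

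Of the 45 enzymes, 44 passed the filter on low counts. Kdm6b, which encodes a demethylase of H3K27, was the 1 enzyme called, and it was lower in cKO. That is 2.27% of the tested members, where 0.587% of all tested genes were called, 0.259% lower and 0.328% higher. DESeq2 and limma-voom each called 1 member lower and 0 higher, but DESeq2 gave no adjusted p to 4 members, Kdm1b, Suv39h1, Suv39h2 and the untested Kdm4d. By edgeR an unadjusted p below 0.05 was found for 4 members, Kdm6b and Kdm1b lower and Kdm7a and Crebbp higher, or 9.09% against a background of 11.9% (5.8% higher and 6.05% lower). By DESeq2 the number was 3 and by limma-voom 5. The genotypes did not overlap for 10 members, or 22.7%, against a background of 16.3% (7.91% higher and 8.4% lower). In cKO 5 of them were higher (Kdm3b, Kdm7a, Nsd2, Nsd3 and Crebbp) and 5 lower (Kdm6b, Kdm5a, Jmjd1c, Kmt2b and Suv39h2). Of the 44, 21 had a positive and 23 a negative log2 fold change (52.3% negative, against a background of 51.2%), with a median of -0.014, beside -0.0060 over all tested genes. For 40 members the 95% interval of the change lay within 1.5-fold in either direction, which held for 54.5% of all tested genes. The tested members were more abundant than most genes, with a median of 152 CPM against 16.5 CPM over all tested genes, and intervals are narrower for abundant genes. The 4 members whose interval reached past 1.5-fold were Kdm6a, Kdm6b, Kdm1b and Suv39h2.

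**Figure D1:**
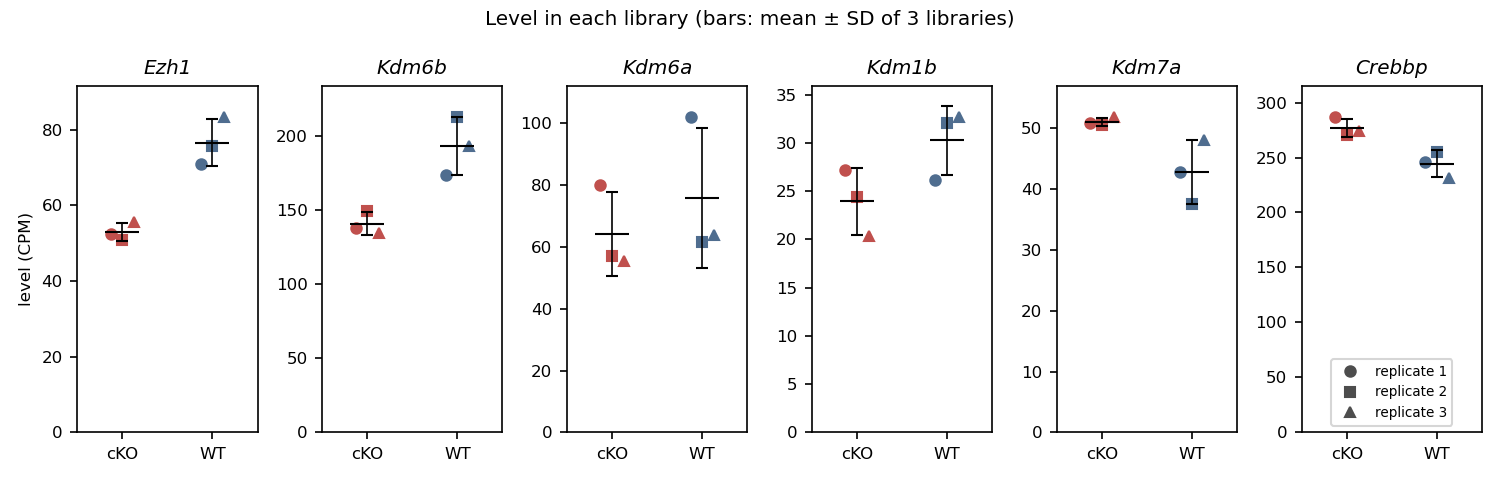
Level of Ezh1 and of 5 enzymes in CPM (vertical axes from 0) in each cKO library (left, red) and each WT library (right, blue), with symbols for the replicate number and black bars for the mean ± SD of 3 libraries. For Ezh1 and Kdm6b every cKO library lies below every WT library, and Kdm6a is high in replicate 1 of both genotypes.

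Kdm6b (NCBI gene 216850, chromosome 11, 69398508 to 69420367, GRCm38) encodes JMJD3, a JmjC-domain demethylase that removes methyl groups from H3K27, the residue that Ezh1 methylates. Its level was 138, 150 and 135 CPM in cKO replicates 1, 2 and 3 (960, 969 and 877 counts). In WT replicates 1, 2 and 3 it was 174, 213 and 194 CPM (1151, 1527 and 1595 counts). The highest cKO library lay below the lowest WT library. The means were 141 ± 7.67 CPM in cKO and 193 ± 19.4 CPM in WT (SD, n = 3 each). The level was 27.2% lower in cKO, or -0.46 on the log2 scale, with -0.63 to -0.28 as its 95% interval (SE 0.09, adjusted p = 0.00758 by edgeR). By p-value Kdm6b ranked 21 among the 13115 tested genes. DESeq2 (adjusted p = 3.27e-04) and limma-voom (adjusted p = 0.00941) called it lower too. The call did not hold without cKO replicate 1 (log2 fold change -0.44, adjusted p = 0.117), WT replicate 2 (-0.38, adjusted p = 0.0925) or WT replicate 3 (-0.46, adjusted p = 0.0857), which leave 2 libraries in 1 genotype. An antisense gene, Kdm6bos, shares 286 bases of exon with Kdm6b, and the strand setting of the counting is not given in the sources used here. The antisense gene has no entry of its own in the table.

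Kdm6a (chromosome X, 18160862 to 18279936) encodes UTX, the other member classed here as an H3K27 demethylase and a partner of the MLL3 and MLL4 methyltransferases. Its level was 79.9, 57.0 and 55.4 CPM in cKO replicates 1, 2 and 3, against 102, 61.4 and 63.8 CPM in WT replicates 1, 2 and 3. Replicate 1 was high in both genotypes, and the genotypes overlapped. Its log2 fold change of -0.23 had a 95% interval of -0.93 to 0.47 (adjusted p = 0.817 by edgeR), an interval that includes both 0 and the value of Kdm6b. Without WT replicate 1, the highest library, it was 0.034. With replicate number added as a term (a replicate block), the log2 fold change of Kdm6a was -0.22 (SE 0.097, against 0.27 without the block). The unadjusted p of that fit was 0.0333 and the adjusted p 0.381 by edgeR, although the numbers were not taken to pair the libraries. With replicates 2 and 3 alone, an alternative chosen after seeing the data, the log2 fold change was -0.16 for Kdm6a (adjusted p = 0.741) and -0.51 for Kdm6b (adjusted p = 0.0312).

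The level of Kdm6a was highest in the libraries with high Xist and almost no Y-linked RNA. Xist, the RNA that coats the inactive X chromosome, was at 831, 1.39 and 1.54 CPM in cKO replicates 1, 2 and 3 and at 812, 4.46 and 1.94 CPM in WT replicates 1, 2 and 3. The Y-linked genes Kdm5d, Uty, Eif2s3y and Ddx3y summed to 2.45, 148 and 137 CPM in cKO and 1.51, 131 and 123 CPM in WT. Replicate 1 of each genotype thus had high Xist and almost no Y-linked RNA, and the other libraries had the reverse. Of the 45 enzymes 4 are X-linked, Kdm6a, Kdm5c, Phf8 and Suv39h1. Kdm6a and Kdm5c are known in mice to escape X inactivation, so that both X copies are transcribed, and the part of this in their levels here was not tested.

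Kdm5c (chromosome X, 152233198 to 152279102), which removes methyl groups from H3K4 and is mutated in X-linked intellectual disability in humans, followed the pattern of Kdm6a. Its level was 150.1, 111 and 109 CPM in cKO replicates 1, 2 and 3 and 148, 109 and 117 CPM in WT replicates 1, 2 and 3. Replicate 1 was higher than the mean of the other libraries of its genotype by 1.37-fold in cKO and 1.31-fold in WT for Kdm5c, and by 1.42-fold in cKO and 1.62-fold in WT for Kdm6a. Taking the smaller of the cKO and WT ratios, these genes ranked 1 (Kdm6a) and 2 (Kdm5c) of the 44 tested members, ahead of Kdm5b at 1.11. With a library of this kind in each genotype, Kdm5c had a log2 fold change of -0.01 between genotypes (95% interval -0.34 to 0.31).

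The other X-linked members showed less of this pattern. The ratio of replicate 1 to the mean of the other libraries was 1.11 in cKO and 1.07 in WT for Suv39h1, which ranked 4, and 0.893 in cKO and 1.12 in WT for Phf8. Phf8, an eraser of H3K9 and H4K20 methylation, was at 47.6, 48.8 and 57.9 CPM in cKO replicates 1, 2 and 3 and at 53.5, 48.1 and 47.5 CPM in WT replicates 1, 2 and 3. Suv39h1, a methyltransferase of H3K9 in heterochromatin, was at 17.3, 15.7 and 15.2 CPM in cKO and 15.6, 15.6 and 13.5 CPM in WT. In Phf8 the highest library was cKO replicate 3, and in both genes the genotypes overlapped.

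Kdm6a and Kdm5c have relatives on the Y chromosome. Uty, the relative of Kdm6a, was at 1.15, 29.6 and 24.9 CPM in cKO replicates 1, 2 and 3 and at 0.605, 18.2 and 21.0 CPM in WT. Kdm5d, the relative of Kdm5c, was at 1.01, 57.4 and 52.6 CPM in cKO and at 0.605, 56.4 and 50.0 CPM in WT. Summed over the X and Y copies, Kdm6a and Uty held 81.0, 86.6 and 80.4 CPM in cKO and 102, 79.7 and 84.8 CPM in WT, and Kdm5c and Kdm5d held 151, 168 and 162 CPM in cKO and 149, 165 and 167 CPM in WT. With the Y copy added, replicate 1 was no longer the highest cKO library for either pair, while WT replicate 1 remained the highest library for Kdm6a and Uty. The X and Y copies are similar in sequence, and how reads that fit both were counted is not given in the sources used here. The Y copies stood at no more than 1.15 CPM in the libraries with high Xist.

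**Figure D2:**
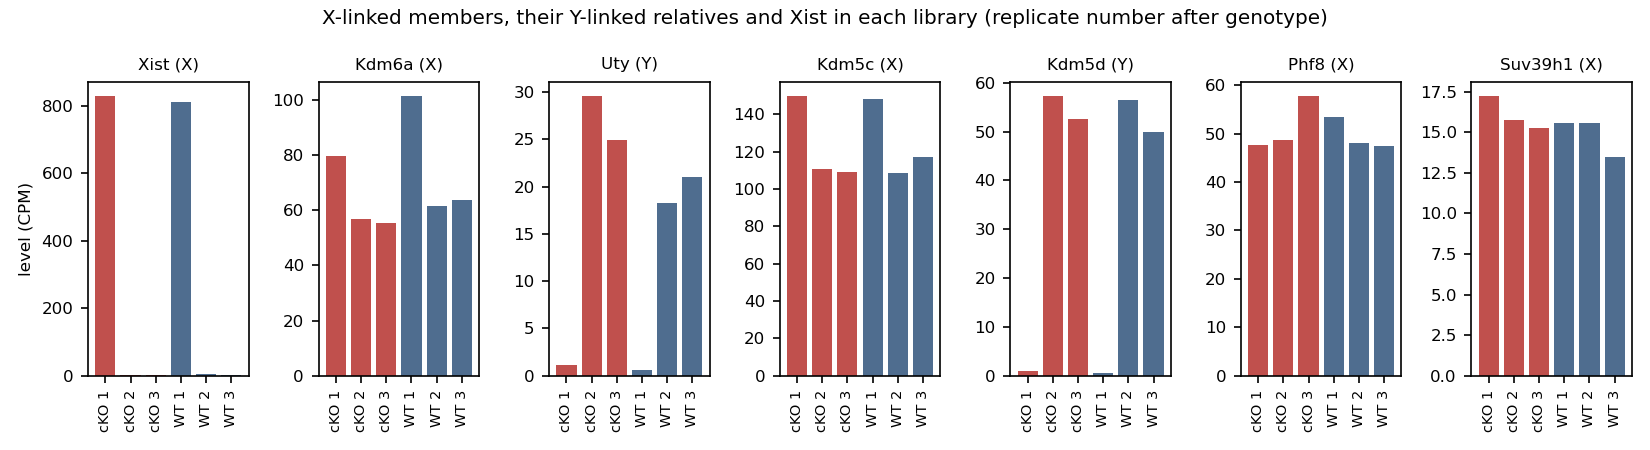
Level in CPM (vertical axes from 0) of Xist, the 4 X-linked enzymes and the Y-linked Uty and Kdm5d, with 1 bar per library, the cKO libraries first in red and the WT libraries after them in blue. Kdm6a and Kdm5c are highest in replicate 1 of both genotypes, where Xist is at 831 CPM (cKO) and 812 CPM (WT) and Uty and Kdm5d are near 0.

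Kdm6a and Kdm5c were both highest in replicate 1 of each genotype, and their promoters are shown. The part of these promoters in the levels was not tested. Each window runs from 250 bases before to 50 bases after a start of transcription, from RefSeq on GRCm38.p6. For Kdm6a that start (18162575) is the start of the gene in GENCODE M21 and lies 1713 bases inside the RefSeq gene record. For Kdm5c (152233227) it lies 29 bases inside the RefSeq record. GENCODE M21 places the start of Kdm5c upstream of it, at 152233020, and by that start most of the Kdm5c window lies within the gene. Of the 45 members 32 had an entry in the RefSeq promoter table, and Kdm6b had none. Capitals mark matches on either strand to AAGATGGCG (part of the YY1 motif), CACGTG (an E-box), GGGCGG (a GC box), CCAAT and TATAAA, a set chosen with the sequences in view, and no matches overlapped. Both lie on the plus strand, Kdm6a at chrX:18162325-18162624 and Kdm5c at chrX:152232977-152233276.
Kdm6a: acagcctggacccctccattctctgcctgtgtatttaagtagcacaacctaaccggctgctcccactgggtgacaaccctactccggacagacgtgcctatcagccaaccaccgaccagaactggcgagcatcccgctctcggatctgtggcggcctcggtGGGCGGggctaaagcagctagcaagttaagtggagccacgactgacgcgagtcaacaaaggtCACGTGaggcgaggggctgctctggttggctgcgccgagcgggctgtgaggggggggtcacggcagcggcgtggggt
Kdm5c: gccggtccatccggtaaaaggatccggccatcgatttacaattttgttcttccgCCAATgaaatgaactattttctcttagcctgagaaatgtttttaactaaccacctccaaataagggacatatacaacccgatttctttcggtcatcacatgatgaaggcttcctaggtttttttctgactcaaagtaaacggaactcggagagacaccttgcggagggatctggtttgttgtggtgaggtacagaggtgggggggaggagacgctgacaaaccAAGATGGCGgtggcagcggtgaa
The Kdm6a window held 1 GC box and 1 E-box, and 21 CpG dinucleotides. The Kdm5c window held 1 CCAAT and 1 AAGATGGCG, and 13 CpG dinucleotides. Neither held TATAAA, and they had no motif of the set in common. Of 32851 mouse promoter windows of this length, GGGCGG was found in 35.7%, CCAAT in 37.4%, TATAAA in 13.6%, CACGTG in 7.15% and AAGATGGCG in 1.40%, and the median number of CpG was 7.

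The erasers of H3K4 methylation other than Kdm5c are Kdm1a (LSD1) and Kdm1b (LSD2), which are flavin-dependent, and Kdm5a and Kdm5b, which have a JmjC domain. EdgeR and limma-voom called none of the 5 and DESeq2 none of the 4 to which it gave an adjusted p. By edgeR 11.9% of all tested genes had an unadjusted p below 0.05, and so did 1 of the 5. That gene was Kdm1b, at 27.2, 24.4 and 20.3 CPM in cKO replicates 1, 2 and 3 against 26.1, 32.0 and 32.6 CPM in WT replicates 1, 2 and 3. Its cKO replicate 1 lay above WT replicate 1, so the genotypes overlapped. The log2 fold change was -0.34 (95% interval -0.63 to -0.04, adjusted p = 0.336 by edgeR), and this was the gene without an adjusted p from DESeq2 (unadjusted p = 0.0579). Kdm1b shares 505 bases of exon with the chromatin gene Dek on the opposite strand. The log2 fold changes were -0.13 for Kdm5a, whose genotypes did not overlap, -0.06 for Kdm1a and 0.05 for Kdm5b.

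The H3K9 demethylases formed the largest class, with 10 members of which 9 were tested. EdgeR, DESeq2 and limma-voom called none of the 9, 6 log2 fold changes were positive and 3 negative, and the median was 0.04. Kdm7a, which removes methyl groups from H3K9 and H3K27, had the 1 unadjusted p below 0.05 by edgeR (share over all tested genes 11.9%). Its level was 50.8, 50.5 and 51.7 CPM in the cKO libraries, against 42.8, 37.5 and 48.1 CPM in the WT libraries. Every cKO library lay above every WT library, by a narrow margin for WT replicate 3. The log2 fold change was 0.25 (95% interval 0.02 to 0.49, adjusted p = 0.383 by edgeR). Its unadjusted p was 0.0369 by edgeR, 0.0335 by limma-voom and 0.0591 by DESeq2.

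Kdm4b, an eraser of H3K9 and H3K36 trimethylation, had the highest mean level per exon length of the class, with libraries that overlapped those of Jmjd1c. With the longest transcript as length Jmjd1c was higher, at 55.6 against 31.7 CPM per kilobase. Kdm4b was at 141, 157 and 153 CPM in cKO and 142, 146 and 131 CPM in WT, and the genotypes overlapped (log2 fold change 0.10, 95% interval -0.07 to 0.27). Its relatives Kdm4a and Kdm4c had log2 fold changes of -0.12 and -0.08. Jmjd1c, a relative of the H3K9 demethylases Kdm3a and Kdm3b whose own activity is debated, was at 449, 471 and 446 CPM in cKO against 498, 520.1 and 487 CPM in WT. The genotypes of Jmjd1c did not overlap, and the log2 fold change was -0.14 (95% interval -0.28 to 0.0029, adjusted p = 0.438 by edgeR). The unadjusted p of Jmjd1c was 0.0544 by edgeR, 0.0362 by DESeq2 and 0.0381 by limma-voom. The log2 fold change was 0.04 for Kdm3a, 0.05 for Kdm3b, 0.05 for Phf8 and 0.04 for Phf2. Kdm3b shares 3468 bases of exon, 24.6% of its total, with the noncoding gene Gm26538.

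Kdm4d, a germline member of the KDM4 family, did not pass the filter on low counts. It had 0, 1 and 1 counts in the cKO libraries and 5, 2 and 3 in the WT libraries. At such counts a difference was not detectable at this depth. Kdm2a, the member classed here as an H3K36 demethylase, was at 169, 161 and 165 CPM in cKO and 157, 174 and 170.2 CPM in WT. The change of Kdm2a on the log2 scale was -0.02 (95% interval -0.18 to 0.15).

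No methyltransferase was called. EdgeR and limma-voom called 0 of 21, DESeq2 gave no adjusted p to 2 of them (Suv39h1 and Suv39h2) and called 0 of the rest, and 0 of the 21 had an unadjusted p below 0.05 by any of the 3 tools. By edgeR 0.587% of all tested genes were called and 11.9% had an unadjusted p below 0.05, so few calls could occur among 21 genes. The methyltransferases had 11 positive and 10 negative log2 fold changes with a median of 0.0053, and 20 had a 95% interval within 1.5-fold. The exception was Suv39h2, a relative of Suv39h1 at 2.88, 2.32 and 3.69 CPM in cKO and 4.99, 4.04 and 3.88 CPM in WT. The Suv39h2 genotypes did not overlap, and the log2 fold change was -0.53 with an interval of -1.25 to 0.18 (adjusted p = 0.598 by edgeR).

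Among the 7 members classed as writers of H3K4, Kmt2d (MLL4, mutated in Kabuki syndrome in humans) was the most abundant per exon length. It was at 1345, 1366 and 1314 CPM in cKO and 1306, 1315 and 1343 CPM in WT. The genotypes overlapped, and the log2 fold change of 0.02 had a 95% interval of -0.10 to 0.15, the narrowest among the members. Kmt2a was at 868, 889 and 829 CPM in cKO against 831, 789 and 804 CPM in WT, with WT replicate 1 among the cKO values (0.09, 95% interval -0.04 to 0.23). Kmt2b was at 317, 316 and 297 CPM in cKO against 321, 388 and 329 CPM in WT. The Kmt2b genotypes did not overlap, with a log2 fold change of -0.16 (95% interval -0.32 to 0.0064, adjusted p = 0.449 by edgeR), and without WT replicate 2, its highest library, it was -0.07. The log2 fold change was 0.03 for Kmt2c, 0.07 for Kmt2e, a family member with little or no catalytic activity, -0.11 for Setd1a and -0.05 for Setd1b. Setd1a shares 3523 bases of exon, 51.8% of its total, with the gene model Gm49388 on the same strand.

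The 5 writers of H3K36 had log2 fold changes between -0.04 and 0.14. Nsd1, a dimethyltransferase mutated in Sotos syndrome in humans, was at 440.1, 452 and 440.0 CPM in cKO and 474, 436 and 464 CPM in WT (-0.04). Nsd3 was at 269, 257 and 252 CPM in cKO against 247, 233 and 228 CPM in WT, and Nsd2 at 189, 172 and 173 CPM in cKO against 159, 160 and 167 CPM in WT. In both, every cKO library lay above every WT library, with log2 fold changes of 0.13 for Nsd3 (95% interval -0.02 to 0.29, adjusted p = 0.512 by edgeR) and 0.14 for Nsd2 (-0.03 to 0.30, adjusted p = 0.530). Setd2, which sets H3K36 trimethylation, had a log2 fold change of -0.03, and Ash1l one of -0.02.

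Dot1l, the H3K79 methyltransferase, was at 572, 587 and 579 CPM in cKO and 553, 552 and 584 CPM in WT (change on the log2 scale 0.04, 95% interval -0.10 to 0.18). Among the writers of H3K9, Ehmt2 (G9a) was at 170.1, 159 and 157 CPM in cKO and 149.8, 196 and 174 CPM in WT. The genotypes of Ehmt2 overlapped (-0.10, 95% interval -0.28 to 0.09), and its partner Ehmt1 had a log2 fold change of 0.01. Setdb1, which silences retroelements, had one of 0.14 and Suv39h1 one of 0.12. Of the H4K20 writers, Kmt5c was at 61.7, 59.4 and 58.3 CPM in cKO and 58.6, 64.6 and 52.4 CPM in WT (0.03), and Kmt5a and Kmt5b had log2 fold changes of -0.03 and -0.04.

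Of the 6 acetyltransferases 1 had an unadjusted p below 0.05 by edgeR, DESeq2 and limma-voom, and none of these tools called any of the 6. The share of all tested genes with such a p by edgeR was 11.9%. Crebbp (CBP), which acetylates H3K27 and is mutated in Rubinstein-Taybi syndrome in humans, was at 286, 271 and 274 CPM in cKO replicates 1, 2 and 3. In WT replicates 1, 2 and 3 it was at 246, 255 and 231 CPM, so every cKO library lay above every WT library. The log2 fold change was 0.18 (95% interval 0.03 to 0.34, adjusted p = 0.328 by edgeR). Its relative Ep300 (p300) had a log2 fold change of 0.05 (95% interval -0.11 to 0.22). Kat6a (MOZ), which acetylates H3, was at 196, 196 and 215 CPM in cKO and 205, 210.5 and 198 CPM in WT (-0.01), and Kat6b had a log2 fold change of -0.08. Kat2a, a subunit of the SAGA coactivator, lies on chromosome 11 (100704746 to 100712485), not far from Ezh1 (101191115 to 101226463). Its log2 fold change was 0.05, and that of its relative Kat2b was -0.04.

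**Figure D3:**
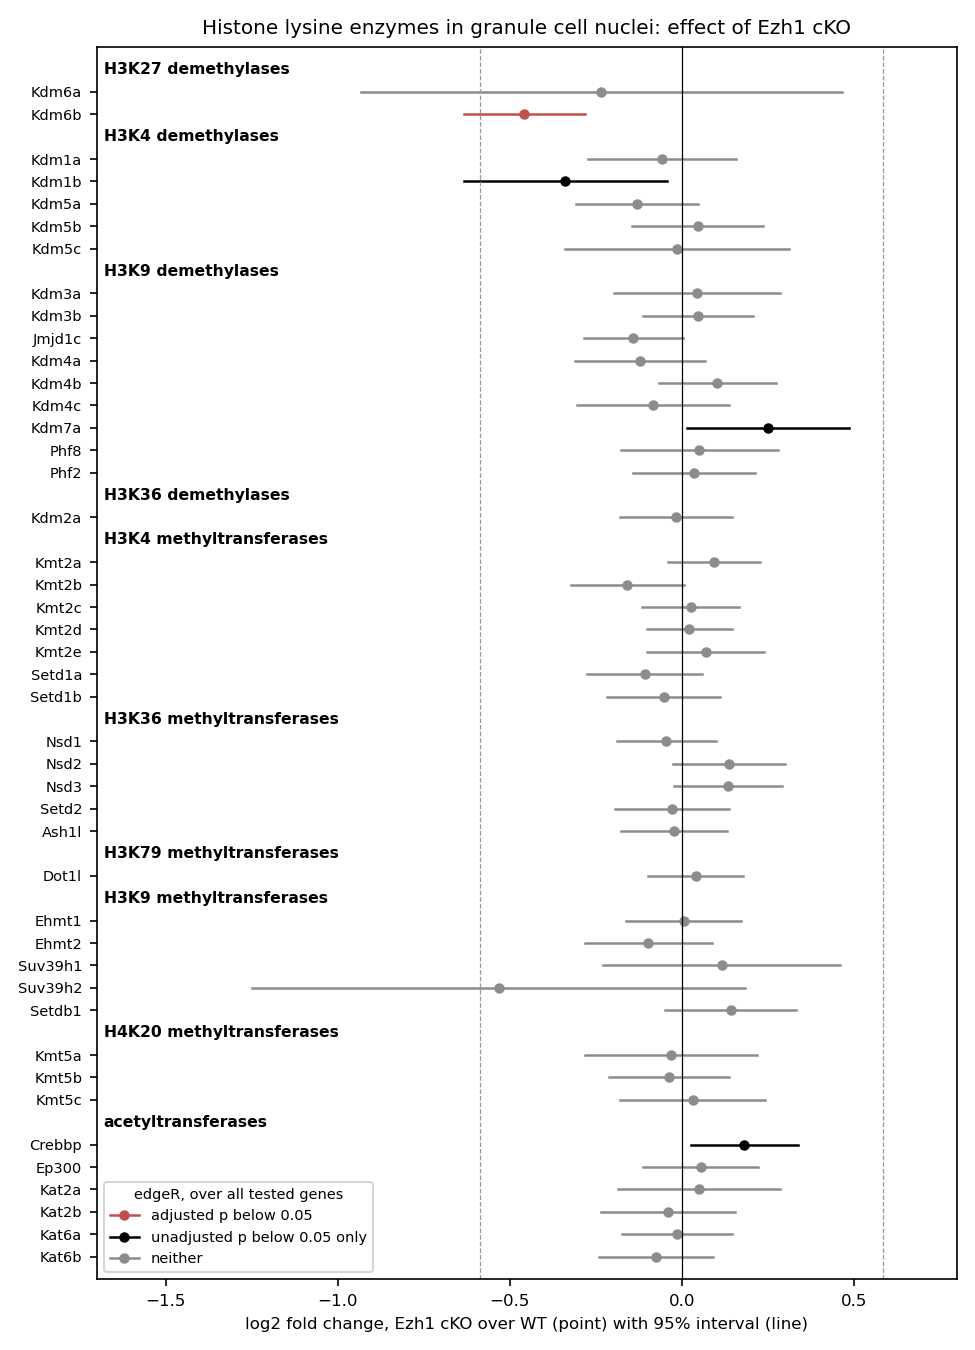
Log2 fold change of cKO over WT (horizontal axis) with its 95% interval for the 44 tested enzymes, by class, with dashed lines at 1.5-fold in either direction. Kdm6b is the 1 enzyme called (red), 3 others have an unadjusted p below 0.05 (black), and 40 of the 44 intervals lie between the dashed lines.

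Levels of different genes were compared per kilobase of annotated exon (the union of exons in GENCODE release M21), over all 6 libraries. Kmt2d was at 66.8 ± 1.17 and Dot1l at 65.6 ± 1.75 CPM per kilobase (SD over 6 libraries), and their ranges overlapped. Kmt2a followed at 50.1 ± 2.27, apart from the genes on either side of it in the order. The next were Setd1a (35.0 ± 2.78), Kmt2b (34.2 ± 3.26), Ehmt2 (30.5 ± 2.99) and Kdm4b (29.6 ± 1.86), whose neighbours overlapped. Setd1a shares 51.8% of its exon bases with Gm49388, and how reads there were counted is not given in the sources used here. Kdm6b, at 24.0 ± 4.55, ranked 12, and Kdm6a, at 8.34 ± 2.13, ranked 33. In all, 37 of the 44 pairs of neighbours overlapped over the 6 libraries. At the low end Suv39h1 (2.94 ± 0.23), Suv39h2 (0.824 ± 0.21) and Kdm4d (0.0994 ± 0.09) were each apart from the gene above. With the length of the longest transcript in place of the exon union, Dot1l ranked 1 and Kmt2d 2, and 8 members moved by more than 5 ranks. The counting of intronic reads is not stated, and these levels assume that exons were counted.

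**Figure D4:**
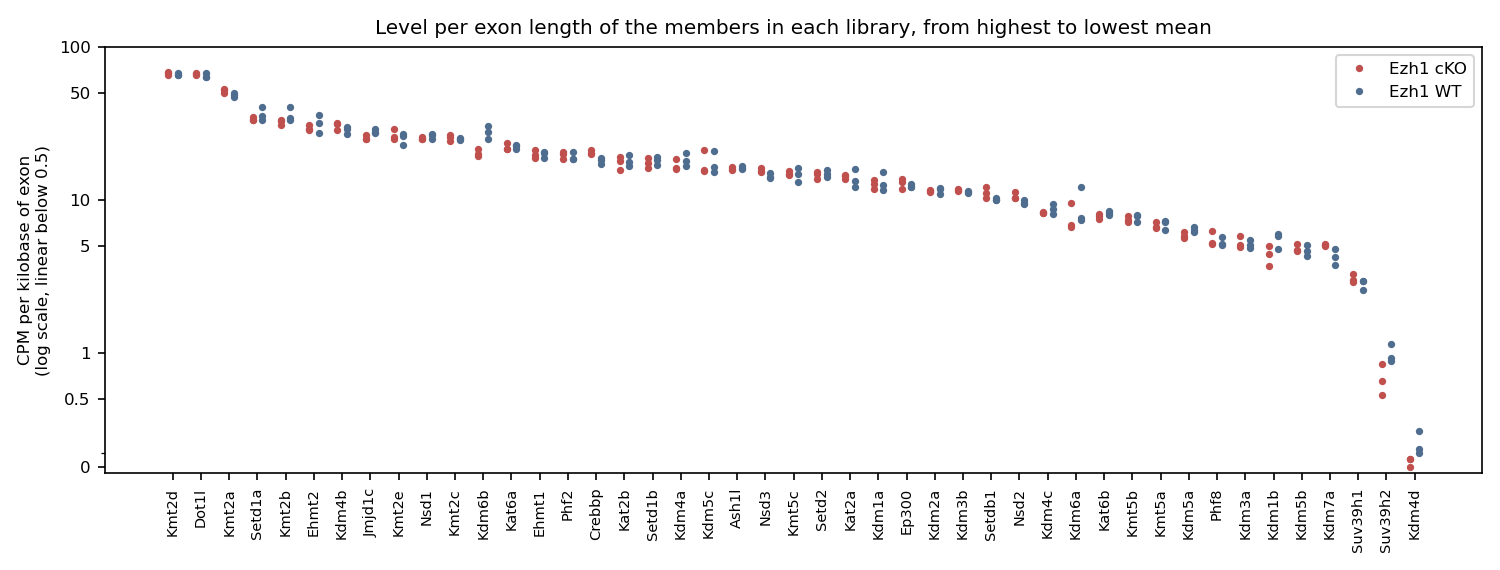
Level in CPM per kilobase of exon (vertical axis on a log scale that is linear below 0.5) for all 45 enzymes, ordered from the highest to the lowest mean, with 1 point per library, cKO in red to the left of WT in blue. The levels of most neighbours overlap, Kmt2d and Dot1l lead, and Suv39h2 and Kdm4d lie far below the rest.

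Related genes outside the 45 were also counted. Their counts stand beside a background by edgeR of 0.587% of all tested genes called and 11.9% with an unadjusted p below 0.05. Of 30 other tested histone lysine enzymes (among 34 listed), edgeR, DESeq2 and limma-voom called none. DESeq2 gave no adjusted p to 15 of the genes on that list, and 2 had an unadjusted p below 0.05 by edgeR. These were the acetyltransferase gene Kat8 (45.1 ± 2.55 CPM in cKO and 52.9 ± 2.19 CPM in WT, change on the log2 scale -0.23, adjusted p = 0.399) and Setd5 (169.8 ± 14.2 CPM in cKO and 191 ± 3.26 CPM in WT, -0.17, adjusted p = 0.415). In both, every cKO library lay below every WT library. Of 18 deacetylases and sirtuins none was called by the 3 tools, and DESeq2 gave no adjusted p to 8 of them. Among them 1 had an unadjusted p below 0.05, the class IIa deacetylase gene Hdac5 (311 ± 29.2 CPM in cKO and 268 ± 2.68 CPM in WT, 0.22, adjusted p = 0.242 by edgeR). Hdac1 had the next smallest p (6.96 ± 0.89 CPM in cKO and 9.04 ± 1.21 CPM in WT, -0.38, adjusted p = 0.563).

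Of 46 genes that encode partners of these enzymes in their complexes, 20 had a positive and 26 a negative log2 fold change (median -0.02). By edgeR 7 of the 46 had an unadjusted p below 0.05, of which 1 was higher (Mllt3) and 6 lower (Atf7ip, Iws1, Ash2l, Tada2a, Tada2b and Cxxc1). The background share over all tested genes was 11.9% (5.8% higher and 6.05% lower). DESeq2 gave no adjusted p to 16 partners. Atf7ip was called lower by edgeR. Atf7ip encodes a partner of the H3K9 methyltransferase SETDB1. Its level was 118, 127 and 135 CPM in cKO replicates 1, 2 and 3, against 157, 165 and 163 CPM in WT. All cKO libraries lay below all WT libraries, with a log2 fold change of -0.35 (SE 0.08, adjusted p = 0.0394). DESeq2 and limma-voom called it lower as well, but edgeR did not when libraries were scaled by size alone (adjusted p = 0.0623). The same was true without cKO replicate 1 (0.332), WT replicate 2 (0.153) or WT replicate 3 (0.177). Setdb1 itself was at 76.4, 70.4 and 83.1 CPM in cKO and 68.8, 68.8 and 70.8 CPM in WT, with overlapping genotypes. DESeq2 also called 1 partner higher, Mllt3, which recruits Dot1l and which edgeR did not call (95.1 ± 8.98 CPM in cKO and 74.3 ± 3.33 CPM in WT, change on the log2 scale 0.36, adjusted p = 0.0750). Mllt3 and the partners with an unadjusted p below 0.05 are named here after their values were seen.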

How the data were processed

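Nuclear RNA of NeuN-positive cerebellar nuclei was sequenced in 6 libraries, 3 Ezh1 cKO and 3 WT. The authors deposited whole-number counts per gene, not normalized, made with Subread on mm10 per the submitters' processing notes. Its version, annotation, strand setting and rule for reads with several matches were not stated there. Nuclei were fixed before sorting per the labels' protocols. NCBI gene identifiers were matched to RefSeq symbols of GRCm38.p6 (24570 of 24594 entries), and exon lengths and overlaps come from GENCODE M21 on the same assembly. Of the 45 members 18 share exon bases with another gene.

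The tests used edgeR 4.0.16 under R 4.3.3 (filterByExpr, TMM, robust quasi-likelihood fits, genotype as the only term), leaving 13115 genes and 99.8% of counts. The 4 largest entries, 32.7% to 35.8% of a library, stayed in the library sizes. Standard errors and 95% intervals come from the F statistics of these fits. DESeq2 1.42.0 and limma 3.58.1 (voom) were alternatives, with other scalings, no filter, a replicate block and each library left out. The scripts were tested on simulated counts. No pair of libraries within a genotype matched to within counting noise (chi-square over its degrees of freedom 4.03 to 5.00). The members, lists and classes were chosen with earlier results of these data known. Full values are given for members with an unadjusted p below 0.05, X-linked members, the H3K27 demethylases and the member of each class with the highest level per length, and other genes by the smallest p in their list. Members whose genotypes did not overlap, Kmt2a, Suv39h2 and Setdb1 were added after their values were seen.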

Additional observations from a re-analysis of the deposited data

How the results depend on the processing

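The fall of Kdm6b in cKO was called in 10 of 13 alternatives, with log2 fold changes from -0.53 to -0.38. With 1 library left out they ranged from -0.53 to -0.38 and the members called lower from 0 to 1, with the losses named in the report. No member was called higher in any alternative run. The other members kept their side of the threshold. The genes called higher numbered 43, against 69 with scaling by library size alone, 146 with no filter on low counts, 23 with replicates 2 and 3 only (chosen after seeing the data) and 10 to 116 with 1 library left out. The genes called lower numbered 34, against 131 with no filter, 54 with DESeq2, 17 with replicates 2 and 3 only and 3 to 133 with 1 library left out. The cause was not tested. Ezh1 and Atf7ip lost their calls where the report says.

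The replicate 1 libraries deviated together (correlation over genes 0.16, the highest of any cKO with any WT library), but those numbered 2 (0.0068) and 3 (-0.04) did not, so the numbers were not taken to pair the libraries. With a replicate block 49 genes were called higher and 41 lower. Kdm6b was at -0.45 (adjusted p = 0.0104), Kdm6a at -0.22 (SE 0.097, against 0.27 without the block; unadjusted p = 0.0333, adjusted p = 0.381) and Atf7ip lost its call (adjusted p = 0.0509).

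The sign of 17 members changed in 33 fits, none with an adjusted p under 0.706. With library size alone the log2 fold changes of Kdm5c (0.020), Kdm2a (0.017), Setd2 (0.0042), Ash1l (0.010), Kmt5a (0.0030) and Kat6a (0.018) became positive. With replicates 2 and 3 only Kat2a became negative (-0.050), and Kat2b (0.031) and Kat6a (0.012) positive. With 1 library left out, log2 fold changes ran from -0.42 to 0.034 for Kdm6a, -0.13 to 0.063 for Kdm1a, -0.0091 to 0.11 for Kdm5b and -0.18 to 0.13 for Kdm5c. They ran from -0.027 to 0.094 for Kdm3a, -0.040 to 0.11 for Phf8, -0.057 to 0.013 for Kdm2a, -0.0012 to 0.062 for Kmt2c and -0.063 to 0.014 for Setd2. For Ehmt1 they ran from -0.042 to 0.043, for Ehmt2 from -0.19 to 2.2e-05, for Kmt5a from -0.084 to 0.0063 and for Kmt5c from -0.043 to 0.11. For Kat2a they ran from -0.028 to 0.16, for Kat2b from -0.10 to 0.042 and for Kat6a from -0.057 to 0.010. With the longest transcript as length, 32 of 45 levels per kilobase moved by more than 1 SD. Depth limits Suv39h2 and Kdm4d most.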
